A study of Homo sapiens with 15 samples.

Results

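The first day of WNT activation was described by comparing the day 1 library with the day 0 library of a differentiation time course of H1 human embryonic stem cells. Genes entered the comparison when their level was at least 1 FPKM (fragments per kilobase of exon, relative to library depth) in either library. This left 14131 of the 60605 genes in the table, of which 11519 were protein-coding. H1 is an established line of human embryonic stem cells, here of WT genotype and grown on Matrigel. Day 0 cells were in E8, the medium that maintains pluripotency. On day 0 they were moved to DF medium and given CHIR99021, a small molecule that inhibits the kinase GSK3 and thereby activates WNT signalling. Day 1 therefore differs from day 0 by the inducer, by the change of medium and by a day of culture, and their effects cannot be told apart. DF medium with insulin followed on day 1, and whether the library was taken before or after that step is not given in the sources used here. The series holds 15 libraries in all. The 13 others follow day 2 and 3 later arms on days 3, 5, 7 and 10, where cells stayed in place (NP-ctrl), stayed in place with the WNT secretion inhibitor IWP2 (NP-IWP2), or were passaged on day 2.

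In canonical WNT signalling, a ligand bound to a Frizzled receptor and an LRP co-receptor stops GSK3 from marking beta-catenin for destruction. Beta-catenin then enters the nucleus and joins the TCF and LEF factors on target genes, several of which encode feedback inhibitors of the same pathway. In the embryo, WNT and NODAL signals mark the primitive streak, where cells of the pluripotent epiblast begin to form mesoderm and endoderm.

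Each day had 1 library, so no value has a biological replicate and no p-value is given. Total counts were 16971479 on day 0 and 18438286 on day 1, within the range of 13254723 to 20250115 over the series. The number of genes above 0 counts was 26241 on day 0 and 26565 on day 1. Genes of the mitochondrial genome took 5.07% of counts on day 0 and 5.65% on day 1. Ratios carry exact 95% intervals, which reflect counting error and nothing else, because each day had 1 library. PCR copies were not removed by molecular identifiers, and the intervals do not allow for them. In bulk RNA, fewer cells of a type and less RNA per cell cannot be told apart.

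The labels were checked against marker genes. On day 0 the embryonic stem cell markers POU5F1, LIN28A, DNMT3B and TDGF1 stood at 625 FPKM, 458 FPKM, 413 FPKM and 228 FPKM. The streak markers TBXT, EOMES and MIXL1 stood at 0.18 FPKM, 0.19 FPKM and 3.27 FPKM on day 0. On day 1 they reached 214 FPKM, 169 FPKM and 789 FPKM. Markers of other cell types that the culture could hold were unevenly present. Neurectoderm genes, a list that includes SOX2 and ZIC2, had the highest sum on day 0, at 391 FPKM, and 184 FPKM on day 1. Definitive endoderm genes summed to 81.1 FPKM and 337 FPKM, of which CER1 made up 200 FPKM on day 1. Both lists are described below. The 16 cardiomyocyte markers summed to 5.12 FPKM on day 0 and 3.66 FPKM on day 1, and TNNT2 had 3 counts and 1 count. The 15 endothelial and blood markers summed to 20.1 FPKM and 27.5 FPKM, of which EGFL7 made up 16.9 FPKM and 17.0 FPKM and SOX18, the 1 gene of this list that passed the threshold described below, 1.11 FPKM and 9.85 FPKM. PECAM1 was at 0 counts in both. The 21 amnion and trophoblast markers summed to 23.3 FPKM and 11.1 FPKM, with TFAP2B at 0 counts in both. The 11 neural crest markers summed to 62.6 FPKM and 20.1 FPKM, and the highest single values among them were 27.6 FPKM and 6.77 FPKM. SOX10, a defining gene of that lineage, had 68 counts and 43 counts. The 11 fibroblast markers summed to 64.3 FPKM and 22.7 FPKM. THY1, which is also a surface marker of embryonic stem cells, made up 51.4 FPKM and 5.93 FPKM of this, and COL1A2 made up 8.05 FPKM and 14.7 FPKM. COL3A1 had 2 counts and 1 count.

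A gene was called higher or lower when log2(FPKM + 1) differed by at least 1 between the libraries, on which changes of weakly expressed genes look smaller than they are. By this rule 692 genes were higher on day 1, which is 4.9% of the genes compared, and 738 were lower, which is 5.22%. Among protein-coding genes 343 were higher (2.98%) and 410 were lower (3.56%). For every one of these the counting interval of the ratio excluded 1, which the threshold makes nearly certain at their counts. The interval also excluded 1 for 63.8% of all genes compared, so it lends the calls little support. Among genes that are not protein-coding, 349 were higher and 328 were lower, but the interval excluded 1 for only 186 and 197 of them, and 252 and 214 had under 30 counts in both libraries. The median difference over all genes compared was 0.01 on the log2 scale, so the calls stand around an almost unmoved centre. Large differences were more often gains. A difference of at least 3 was met by 39 protein-coding genes upward and by 8 downward. Just inside and outside the threshold, 289 genes had an absolute difference of 1 to 1.1 and 283 of 0.9 to 1. Of the protein-coding genes that were higher, 129 were under 1 FPKM on day 0 and entered the comparison through day 1 alone. Of the protein-coding genes that were lower, 125 were under 1 FPKM on day 1 and entered through day 0 alone. Such entry fixes the direction of a difference but not the call. Of all 1146 genes that entered through day 1 alone 416 were called higher. Of all 971 that entered through day 0 alone 366 were called lower. The counts for gene lists below share that limit and are descriptions, to be read against the percentages given here.

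**Figure D1:**
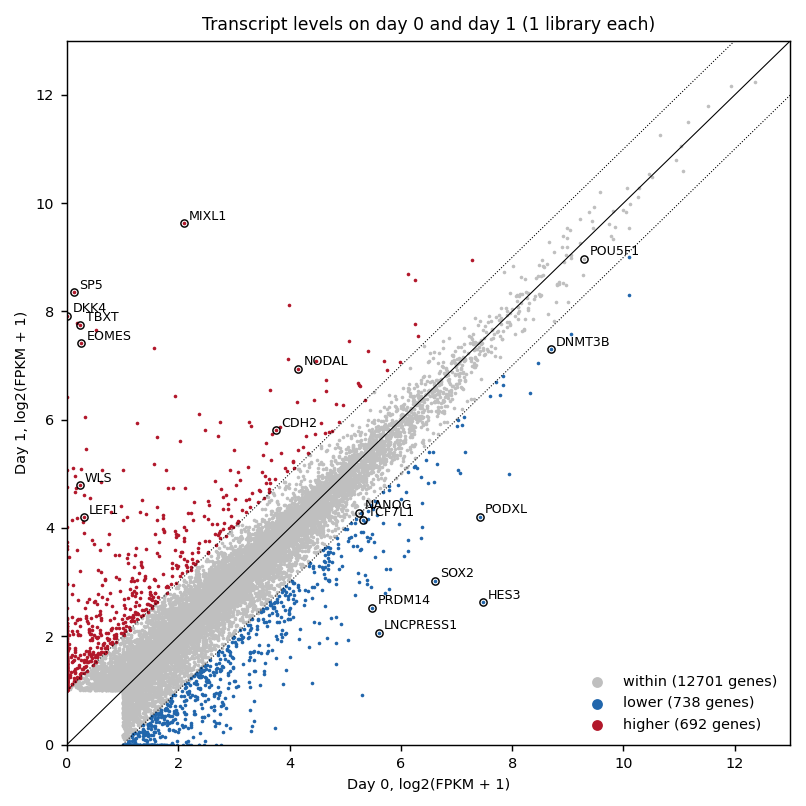
Level of each of the 14131 genes on day 0 (x axis) and day 1 (y axis), both as log2(FPKM + 1), with 1 library per day. Dotted lines mark a difference of 1, and the 692 genes above the upper line (red) reach farther from the diagonal than the 738 below the lower line (blue), with SP5, DKK4, TBXT and EOMES near 0 on day 0 and HES3, SOX2 and PODXL among the losses.

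The genes of the primitive streak were among the largest gains. Of 26 listed streak transcription factors 23 were above the filter, and 19 of these were higher and none lower, with a median difference of 3.22 on the log2 scale. SP5, a zinc finger factor and direct target of beta-catenin, went from 3 counts to 12440 counts, or from 0.09 FPKM to 325 FPKM. Its ratio of 3817 (interval 1306 to 18510) was wide because of the few counts on day 0. TBXT (brachyury), the T-box factor that defines the streak, went from 8 to 10271 counts, a ratio of 1182 (600 to 2738). EOMES, a T-box factor needed for both endoderm and mesoderm, went from 12 to 11402 counts, a ratio of 875 (500 to 1693). All 3 were at or under 12 counts before induction.

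MIXL1, a homeobox gene of the streak, differed from these in being present before induction. It had 113 counts on day 0 and 29592 on day 1, or 3.27 FPKM and 789 FPKM, a ratio of 241 (200 to 293). EVX1, a homeobox gene of the posterior streak, had 0 counts on day 0 and 85.1 FPKM on day 1, which is at least 1616-fold higher with day 0 set to the floor of 3 counts. The caudal factors CDX1 and CDX2 reached 30.2 FPKM and 12.4 FPKM from 0.1 FPKM and 0 FPKM. GSC, a homeobox gene of the anterior streak and organizer, went from 1.4 FPKM to 60.1 FPKM, a ratio of 43.1 (29.5 to 65.7). Genes of the posterior and of the anterior streak were thus both gained in the same library.

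Some factors of the tissues that leave the streak were also higher. MESP1, of cardiac and cranial mesoderm, went from 0.4 FPKM to 12 FPKM, although its reads may be shared with its paralog MESP2, which stayed below the filter. MSGN1 and TBX6, of presomitic mesoderm, reached 1.62 FPKM and 3.88 FPKM. SNAI1, a repressor of epithelial genes in epithelial-mesenchymal transition, went from 4.49 FPKM to 17.7 FPKM. LHX1 and SNAI2 were below the filter, and CDX4, SP8, ZIC1 and NKX1-2 were within the threshold.

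WNT target genes that feed back on the pathway were the next group. Of 24 listed, 19 were above the filter, 12 of them higher and 1 lower, with a median difference of 2.05. DKK4 and DKK1 encode secreted proteins that block the LRP co-receptor. DKK4 went from 0 to 3975 counts, at least 1220-fold higher, and DKK1 from 5 to 9000 counts, a ratio of 1657 (710 to 5104). AXIN2, a scaffold of the complex that destroys beta-catenin, went from 6.63 FPKM to 32.8 FPKM, a ratio of 4.95 (4.53 to 5.41). NKD1, which acts on Dishevelled, went from 0.81 FPKM to 10.3 FPKM. APCDD1, a membrane inhibitor, went from 2.05 FPKM to 16.8 FPKM, and NOTUM, an enzyme that inactivates WNT ligands, from 0.55 FPKM to 6.76 FPKM.

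The targets did not move as one. MYC, which is on this list and also among the pluripotency genes, was lower, at 23.7 FPKM and 9.29 FPKM. CCND1, a cyclin often cited as a WNT target, stood at 95.2 FPKM and 91.5 FPKM. ZNRF3, a ligase that removes Frizzled receptors, stood at 5.58 FPKM and 7.12 FPKM. LGR5, RNF43, ASCL2, WIF1 and FGF20 were below 1 FPKM in both libraries.

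**Figure D2:**
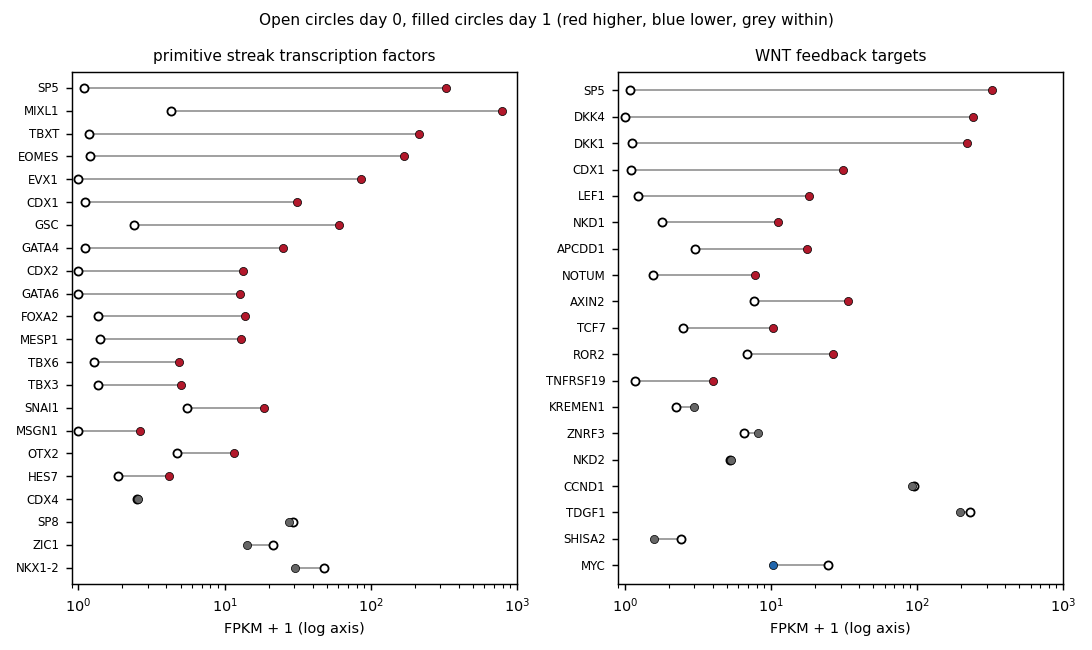
Level on day 0 (open circles) and day 1 (filled circles) of listed primitive streak transcription factors (left, 22 of the 23 genes) and WNT feedback targets (right, 19 genes) above the filter, as FPKM + 1 on a log axis. SP5, TBXT, EOMES, DKK1 and DKK4 lie at about 1 on day 0 and above 100 on day 1, whereas MYC moved to the left.

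The promoters of SP5 and MIXL1 and, for contrast, of SOX2, the core pluripotency gene that was lost, are shown because they hold or lack the core letters of a TCF/LEF site. The letters searched were CTTTGAT on either strand, marked in capitals, in RefSeq windows on GRCh38.p14, and the 250 bases before each start are printed 5′ to 3′ on the + strand.
SP5 (chr2:170715087-170715336): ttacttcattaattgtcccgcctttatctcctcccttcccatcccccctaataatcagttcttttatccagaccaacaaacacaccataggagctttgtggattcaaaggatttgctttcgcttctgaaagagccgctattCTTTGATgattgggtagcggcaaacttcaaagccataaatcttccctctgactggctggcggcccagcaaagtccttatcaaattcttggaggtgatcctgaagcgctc
MIXL1 (chr1:226223414-226223663): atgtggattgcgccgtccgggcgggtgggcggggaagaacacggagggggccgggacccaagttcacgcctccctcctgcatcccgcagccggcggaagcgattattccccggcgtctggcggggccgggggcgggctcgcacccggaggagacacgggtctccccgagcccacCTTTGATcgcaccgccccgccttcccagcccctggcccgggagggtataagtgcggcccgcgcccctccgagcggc
SOX2 (chr3:181711675-181711924): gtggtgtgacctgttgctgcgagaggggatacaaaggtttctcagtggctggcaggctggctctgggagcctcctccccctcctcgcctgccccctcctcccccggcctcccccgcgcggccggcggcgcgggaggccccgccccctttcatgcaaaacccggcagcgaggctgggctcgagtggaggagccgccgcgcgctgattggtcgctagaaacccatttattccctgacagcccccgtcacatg

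The letters begin 109 bases before the start of SP5 and 76 bases before that of MIXL1. Among RefSeq windows of 250 bases before to 50 bases after a start, 2.62% of all 35116 held CTTTGAT. It was in 2.64% of the 416 windows of genes higher on day 1 and in 2.04% of the 489 of genes lower. Of the 13110 windows of genes within the threshold 1.45% held it. Of the 19 windows of streak factors 2 held it, those of SP5 and MIXL1 printed above. Of the 16 windows of WNT feedback targets 1 did, again that of SP5, which is on both lists. A window without the letters, as that of SOX2, is the usual case. The octamer ATGCAAAT, read by POU5F1-type factors, was in 2.66% of windows of genes lower, 0.962% of those of genes higher, 1.3% of those within and 1.77% of all. The T-box letters AGGTGTGA were in 1.64% of windows of genes lower, 0.721% of those of genes higher, 0.664% of those within and 0.98% of all. A match of these letters is a description and does not show binding.

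The parts of the WNT pathway were uneven. Among 19 WNT ligand genes 5 were above the filter and 3 were higher. WNT3, the ligand required for the streak in the mouse, went from 1.56 FPKM to 22.0 FPKM, a ratio of 14.1 (11.7 to 17.2). WNT5B, a ligand of the non-canonical branch, went from 1.01 FPKM to 16.7 FPKM, a ratio of 16.4 (13 to 21.1). WNT8A went from 0 to 47 counts and reached 1.28 FPKM. WNT5A stood at 4.73 FPKM and 6.43 FPKM, and WNT3A was below the filter. WLS, the carrier that brings WNT proteins to the cell surface, went from 13 to 2193 counts, or from 0.17 FPKM to 26.7 FPKM, a ratio of 155 (90.6 to 292).

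Among 23 receptors and co-receptors, 18 were above the filter, with 4 higher and 4 lower. ROR2, a receptor of the WNT5 branch, went from 5.82 FPKM to 25.5 FPKM, and its relative ROR1 in the other direction, from 14.8 FPKM to 4.29 FPKM. FZD10 went from 1.38 FPKM to 7.19 FPKM, and FZD5 and FZD8 were lower, at 23.6 FPKM and 7.83 FPKM, and at 6.34 FPKM and 2.38 FPKM. FZD7, the highest Frizzled on both days, stood at 34.1 FPKM and 43.3 FPKM. The co-receptors LRP5 and LRP6 were within the threshold. RSPO3, a secreted amplifier of WNT signals, went from 2 to 239 counts, whereas LGR4, a receptor for such proteins, was lower, at 19.4 FPKM and 8.86 FPKM.

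Of 13 secreted antagonists above the filter 4 were higher, 1 was lower and 8 were within the threshold. Beside DKK1, DKK4 and NOTUM, CER1, a member of the list that binds NODAL and BMP proteins, went from 9 to 4545 counts, a ratio of 465 (245 to 1017). SFRP1, a decoy for WNT ligands, was lower, at 63.1 FPKM and 22.1 FPKM, and SFRP2 stood at 399 FPKM and 246 FPKM. DKK3 stood at 1.74 FPKM and 2.17 FPKM.

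The nuclear partners of beta-catenin changed composition. LEF1 went from 21 to 1717 counts, or from 0.23 FPKM to 17.4 FPKM, a ratio of 75.3 (49.1 to 122). TCF7 went from 1.51 FPKM to 9.41 FPKM, a ratio of 6.22 (5.46 to 7.12). TCF7L1, which mostly represses in pluripotent cells, was lower, at 38.9 FPKM and 16.7 FPKM. TCF7L2 was lower as well, at 6.66 FPKM and 1.57 FPKM. The co-repressors TLE1 and TLE2 were lower, at 40.8 FPKM and 13.2 FPKM, and at 4.7 FPKM and 1.22 FPKM, but TLE3 and TLE4 were not. The 4 TCF and LEF genes thus went in opposite directions. The core of the pathway stood still by comparison. CTNNB1, which encodes beta-catenin, stood at 42.1 FPKM and 48.7 FPKM, GSK3B at 4.21 FPKM and 4.59 FPKM, and APC at 3.47 FPKM and 2.86 FPKM.

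NODAL, the TGF-beta family ligand that patterns the streak, went from 16.9 FPKM to 122 FPKM, a ratio of 7.22 (6.63 to 7.88). FOXH1, the DNA-binding partner of its SMAD effectors, went from 50.7 FPKM to 135 FPKM. FST, a secreted binder of activin, went from 2.85 FPKM to 85.2 FPKM, a ratio of 29.9 (25.2 to 35.8). The pathway's own targets were divided. PMEPA1 was higher, at 8.73 FPKM and 19.9 FPKM. LEFTY1, a secreted NODAL inhibitor, was lower, at 26.0 FPKM and 9.38 FPKM, and its neighbour LEFTY2 stood at 4.54 FPKM and 1.8 FPKM. Of the 28 listed genes 21 were above the filter, 6 higher and 1 lower, with a median difference of 0.12.

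In the BMP pathway 16 of 32 listed genes were above the filter, with 4 higher and none lower. BMP2 went from 0.95 FPKM to 20.3 FPKM, a ratio of 21.4 (16.4 to 28.4), whereas BMP4 stood at 1.33 FPKM and 3.26 FPKM. The homeobox targets MSX1 and MSX2 went from 0.25 FPKM to 65.1 FPKM and from 0.13 FPKM to 11.1 FPKM. All 4 ID genes, which encode inhibitors of helix-loop-helix factors, had positive differences, and ID2 alone passed the threshold, at 18.7 FPKM and 51.2 FPKM. ID3 stood at 84.3 FPKM and 164 FPKM. The inhibitors NOG and CHRD were below the filter.

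Of 22 fibroblast growth factor ligands 10 were above the filter, and 5 were higher and none lower. FGF4 went from 106 to 9257 counts, or from 1.97 FPKM to 159 FPKM, a ratio of 80.4 (66.4 to 98.3). FGF17 went from 0.27 FPKM to 42.8 FPKM, and FGF8, a ligand needed in the mouse streak, from 4.61 FPKM to 55.0 FPKM. FGF19 went from 37.6 FPKM to 97.8 FPKM and FGF10 from 0.11 FPKM to 2.45 FPKM. FGF2, the ligand that E8 medium supplies as a protein, stood at 10.9 FPKM and 6.74 FPKM.

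Among 19 receptors and feedback genes above the filter, 5 were lower, 2 higher and 12 within the threshold. DUSP6, a phosphatase that ERK signalling induces and that acts on ERK, was lower, at 65.5 FPKM and 10.1 FPKM, a 6.47-fold difference (5.98 to 7.01). DUSP5, SPRY1 and ETV5, further genes of that response, were 2.48-fold, 2.86-fold and 2.27-fold lower, and FGFR2 was 3.65-fold lower. ETV4, SPRY4 and FGFR1 stood below their day 0 levels without reaching the threshold, and SPRY2 stood at 33.5 FPKM and 31.6 FPKM. The genes that were higher are IL17RD, a membrane inhibitor of FGF receptors, and FLRT3, a membrane protein that binds them.

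**Figure D3:**
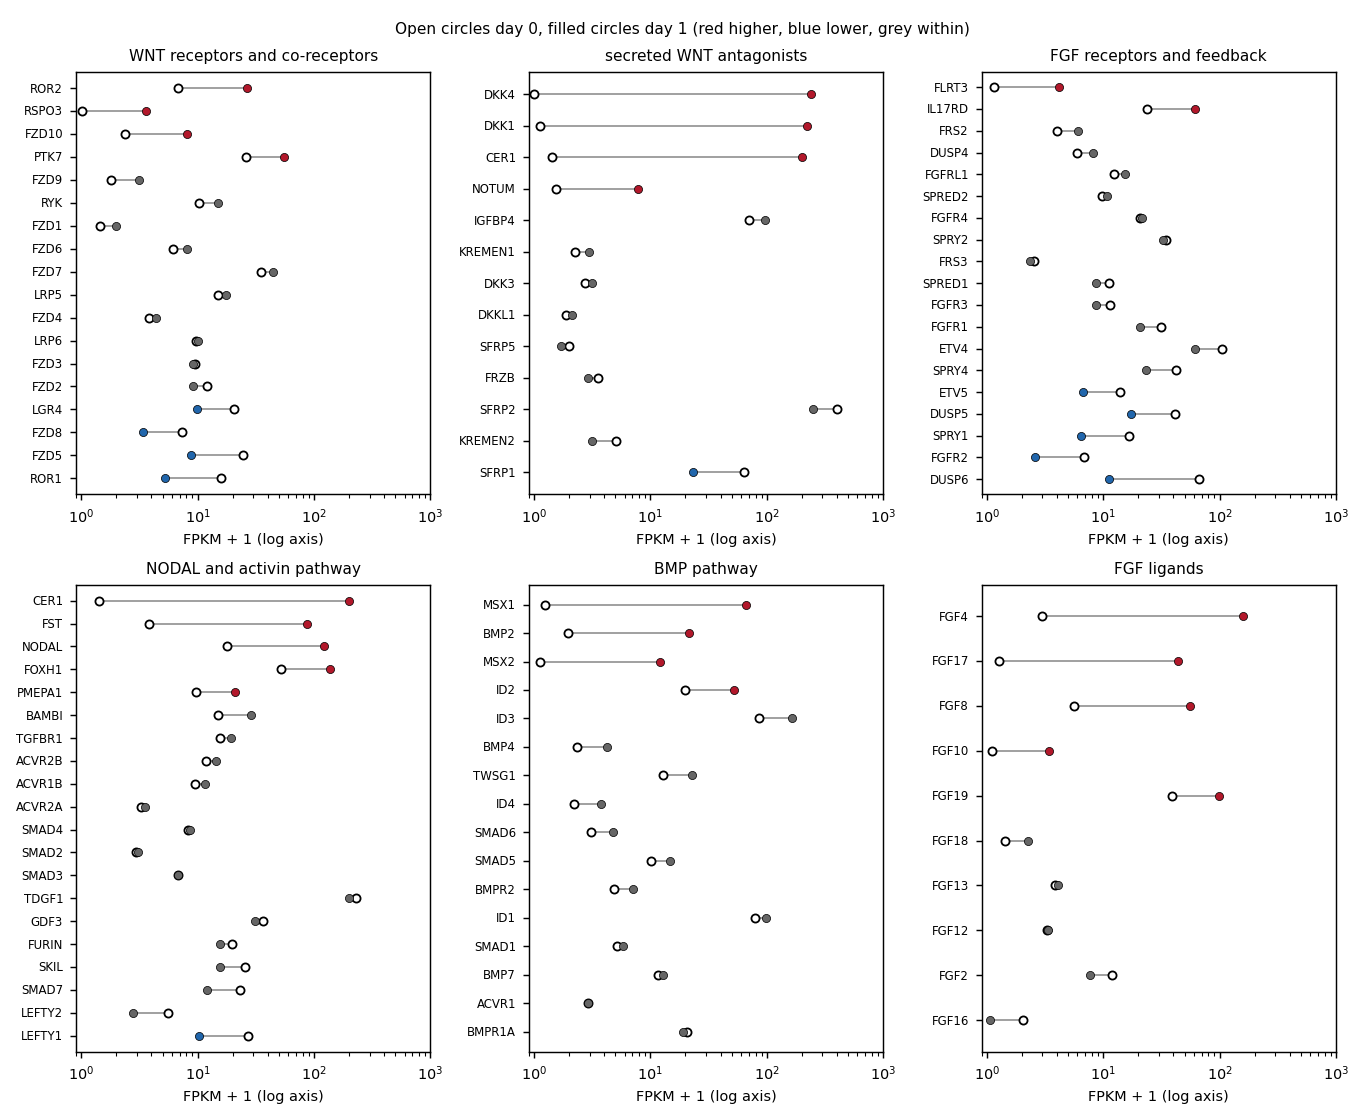
Level on day 0 (open circles) and day 1 (filled circles) of members above the filter in 6 signalling lists, as FPKM + 1 on a log axis, sorted within each panel by the difference. FGF4, FGF17 and FGF8 moved to the right while DUSP6, SPRY1 and ETV5 moved to the left, and NODAL and LEFTY1 moved in opposite directions.

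The NOTCH list held the largest loss on the log2(FPKM + 1) scale among the protein-coding genes ranked, although APELA, TRIML2 and C9orf135 lost more by ratio. HES3, a repressor of the HES family, went from 2125 to 68 counts, or from 176 FPKM to 5.19 FPKM, a 34.0-fold difference (26.7 to 43.9). Its relatives HES1, HES4 and HES7 were higher, at 9.93 FPKM and 24.9 FPKM for HES1, 0.74 FPKM and 3.35 FPKM for HES4, and 0.85 FPKM and 3.14 FPKM for HES7. DLL3, an atypical ligand of presomitic mesoderm, went from 5.94 FPKM to 22.7 FPKM, and LFNG, which glycosylates NOTCH, was lower. Receptors NOTCH1, NOTCH2 and NOTCH3 were within the threshold, and over the 20 genes above the filter 4 were higher and 2 lower.

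The core pluripotency factors were lost unequally. SOX2 went from 4141 to 330 counts, or from 97.1 FPKM to 7.12 FPKM, a 13.6-fold difference (12.2 to 15.3). Its gene lies inside SOX2-OT, and whether the counting separated the pair by strand is not given in the sources used here. NANOG stood at 37.2 FPKM and 18.4 FPKM, a 2.02-fold difference (1.91 to 2.14), which is a difference of -0.98 on the log2(FPKM + 1) scale and just outside the threshold. POU5F1, also known as OCT4, stood at 625 FPKM and 501 FPKM, a 1.25-fold difference (1.23 to 1.27). The counting intervals of the 3 ratios do not overlap. On day 1, POU5F1 at its high level therefore stood beside TBXT and EOMES in the same bulk library.

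Of 46 other pluripotency genes 41 were above the filter, 20 lower and 2 higher, with a median difference of -0.95. PRDM14, a repressor of differentiation genes, was 9.21-fold lower (7.97 to 10.7), at 43.9 FPKM and 4.76 FPKM. PODXL, the sialomucin that carries the TRA-1 surface antigens, was 9.69-fold lower (9.28 to 10.1), at 170 FPKM and 17.5 FPKM. UTF1, a chromatin protein of pluripotent cells, stood at 246 FPKM and 30.9 FPKM, and THY1 at 51.4 FPKM and 5.93 FPKM. JARID2, a partner of Polycomb complex PRC2, stood at 81.2 FPKM and 13 FPKM, and TERF1, which binds telomere repeats, at 35.1 FPKM and 5.8 FPKM. These 6 genes were between 6.05-fold and 9.69-fold lower.

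Within the same list others were close to their day 0 level. LIN28A stood at 458 FPKM and 365 FPKM, TDGF1, the NODAL co-receptor, at 228 FPKM and 198 FPKM, and SALL4 at 35.9 FPKM and 40.4 FPKM. ZIC2 stood at 74.4 FPKM and 95 FPKM. The members that were higher are OTX2, at 3.73 FPKM and 10.6 FPKM, and KLF5, at 0.53 FPKM and 4.04 FPKM. The de novo DNA methyltransferases were both lower. DNMT3B went from 413 FPKM to 157 FPKM, a 2.64-fold difference (2.59 to 2.69), and DNMT3A from 15.7 FPKM to 6.88 FPKM. The maintenance enzyme DNMT1 stood at 17.2 FPKM and 16.8 FPKM, and TET1, which oxidises methylated cytosine, at 13.5 FPKM and 12.3 FPKM.

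Non-coding RNAs of pluripotent cells were likewise divided. Of 15 listed, 11 were above the filter, with 6 lower and 2 higher. LNCPRESS1 was 14.9-fold lower (11.2 to 20.2), at 698 and 51 counts. ESRG, a transcript of endogenous retrovirus HERV-H origin, was 2.68-fold lower, at 351 FPKM and 131 FPKM. LINC01356 went the other way, from 2.05 FPKM to 50.2 FPKM, a ratio of 24.4 (20.2 to 29.8), and LINC00458 from 1.32 FPKM to 10.3 FPKM. MIR302CHG, the host transcript of the miR-302 cluster, stood at 108 FPKM and 61.5 FPKM, which says nothing of the mature miRNAs.

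Most neural genes above the filter were lower, SOX2 itself among them. Of 26 neurectoderm genes 13 were above the filter, 8 lower and 1, OTX2, higher. ZIC2, the highest gene of this list on day 1, was within the threshold, at 74.4 FPKM and 95 FPKM. SOX3 was 15.3-fold lower (12 to 19.9), at 27.5 FPKM and 1.79 FPKM. SIX6 and SIX3, homeobox genes of the eye field and forebrain, stood at 43.4 FPKM and 6.53 FPKM, and at 9.51 FPKM and 3.1 FPKM. POU3F1 stood at 6.26 FPKM and 0.59 FPKM, and NES, the intermediate filament of neural progenitors, at 94.5 FPKM and 41.4 FPKM. PAX6 had 8 counts and 0 counts. In the SOX family 5 of 12 genes above the filter were lower, among them SOX21 (26.2-fold, 16.6 to 44), and SOX18, of endothelial cells, was the 1 that was higher, at 1.11 FPKM and 9.85 FPKM. All 3 LIM homeobox genes above the filter were lower.

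**Figure D4:**
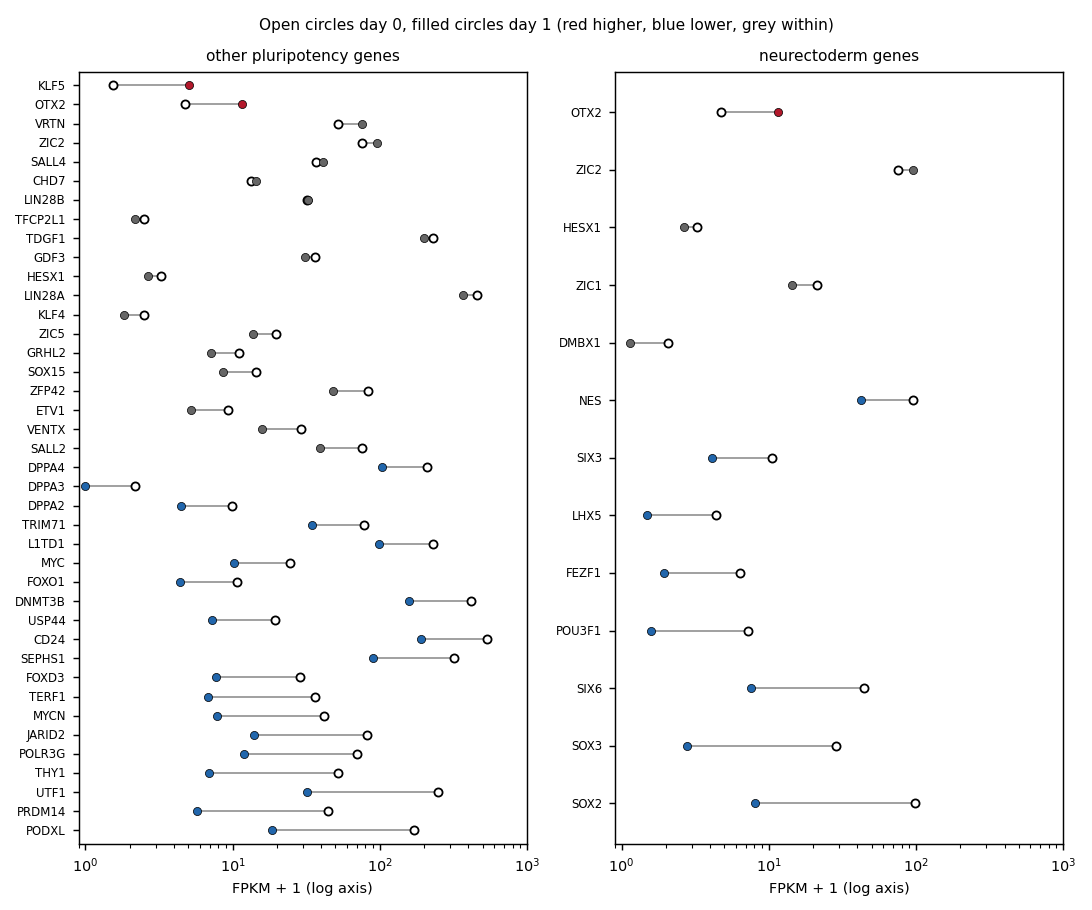
Level on day 0 (open circles) and day 1 (filled circles) of listed pluripotency genes other than POU5F1, NANOG and SOX2 (left, 40 of the 41 genes) and neurectoderm genes (right, 13 genes) above the filter, as FPKM + 1 on a log axis. PODXL, PRDM14 and UTF1 moved farthest to the left among pluripotency genes, LIN28A and TDGF1 stayed near their day 0 level, and SOX2 and SOX3 head the neurectoderm losses.

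Genes of mesoderm and endoderm were gained in part. In the T-box family 5 of 8 genes above the filter were higher, and in the GATA family GATA4 and GATA6 were. GATA4 went from 8 to 1984 counts, or from 0.11 FPKM to 24.2 FPKM, and GATA6 from 0 to 816 counts, at least 250-fold higher. FOXA2, an endoderm and organizer factor, went from 0.37 FPKM to 12.8 FPKM, a ratio of 34.7 (21.5 to 59.95). Of 18 definitive endoderm genes 9 were above the filter, 5 of them higher and none lower. SOX17, which marks definitive endoderm, was at 0 counts in both libraries, and CXCR4 was below the filter. Of 25 genes of early mesoderm and cardiac progenitors 12 were above the filter and 9 of them higher. KDR, the VEGF receptor of mesoderm, went from 18.0 FPKM to 44.2 FPKM, but HAND1, ISL1, PDGFRA and TBX5 were below the filter. Of 39 HOX genes 37 were below it.

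A ligand and its receptor changed places. APELA, a peptide ligand of the apelin receptor, was 47.6-fold lower (25.6 to 99.9), with 438 counts and 10 counts. APLNR, the receptor, went from 15 to 1588 counts, or from 0.24 FPKM to 23.5 FPKM, a ratio of 97.4 (58.9 to 174). The GABA system showed a like mixture. GAD1, which makes GABA, went from 11 to 5113 counts, or from 0.08 FPKM to 33.7 FPKM. Of 16 glutamate and GABA receptor genes above the filter 6 were lower, among them GABRA5, and GABRB2 was higher, at 0.15 FPKM and 4.01 FPKM.

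Of 9 classical and desmosomal cadherin genes above the filter 2 were higher and none lower. CDH2, the N-cadherin of mesenchymal cells, went from 12.5 FPKM to 54.9 FPKM, a ratio of 4.41 (4.19 to 4.64), while CDH1, the E-cadherin of epithelia, stood at 73.6 FPKM and 79.8 FPKM and EPCAM at 73.5 FPKM and 77.1 FPKM. Of 26 epithelial genes above the filter 6 were lower and none higher. They include KRT8 and KRT18, at 130 FPKM and 62.4 FPKM, and at 220 FPKM and 86.5 FPKM, and the junction gene CLDN4, at 10.2 FPKM and 2.24 FPKM. VIM, the mesenchymal filament, stood at 16.4 FPKM and 9.2 FPKM. Of 16 mesenchymal genes above the filter 5 were higher, among them CDH11 and HAS2, and 1 was lower.

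Most matrix, contact and guidance genes were within the threshold, as were most protein-coding genes, of which 2.98% were higher and 3.56% lower. Of 24 collagen chains above the filter 3 were higher and 4 lower, and of 20 protocadherins 1 and 1. Of 8 Eph receptors 2 were higher and 0 lower, of 24 semaphorins and plexins 1 and 3, and of 9 netrin and slit guidance genes 3 and 2. Apart from the Eph receptors that were lower, these shares are above those of all protein-coding genes, but rest on few genes. COL6A1 and COL6A2, which form collagen VI, went from 75.8 FPKM to 217 FPKM and from 24.1 FPKM to 91.8 FPKM, whereas COL1A1, of collagen I, was lower, at 4.28 FPKM and 1.52 FPKM. PCDH10, a protocadherin, went from 1.02 FPKM to 32.7 FPKM, a ratio of 31.9 (27.5 to 37.3). EPHA4 and EPHA2 were higher, with ratios of 11.4 and 4.33, as was NTN1, which encodes netrin, with a ratio of 10.2. UNC5B, a netrin receptor, was 5.95-fold lower. RND3, a small GTPase that loosens the actin cytoskeleton, was 6.69-fold lower (5.88 to 7.63), and ITGA6 was the 1 integrin of 11 above the filter to be called, at 23.4 FPKM and 11.1 FPKM. ACTB stood at 1098 FPKM and 749 FPKM.

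Housekeeping programmes stayed mostly within the threshold. None of 41 S phase genes and 2 of 40 genes of G2 and mitosis (BUB1 and CENPE, both higher) were called. Negative differences were held by 26 of the S phase genes and by 33 of those of G2 and mitosis, with medians of -0.14 and -0.22. None of 25 genes of cholesterol synthesis and uptake was called, although 20 had negative differences, with a median of -0.30. Of 86 cytosolic ribosomal protein genes 1 was called, and of 77 mitochondrial ones 1. CCND3 was the 1 cyclin gene called, 5.94-fold lower (5.04 to 7.05), at 9.4 FPKM and 1.58 FPKM. In the glycolysis list PDK1 went from 2.73 FPKM to 25.7 FPKM, and HK1 was lower, at 46.7 FPKM and 17.9 FPKM. Of 16 hypoxia genes above the filter 3 were higher and 1 lower. The 1 that was lower is ADM, a peptide often induced by low oxygen, with a 17.0-fold difference (12.8 to 23.0). BNIP3 was among the higher ones, at 16.6 FPKM and 79.0 FPKM. TXNIP, which curbs glucose uptake, went from 1.49 FPKM to 18.6 FPKM. The list of insulin and FOXO responsive genes as a whole had 2 higher and 2 lower of 19, and the part of the insulin step was not tested.

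Of the protein-coding genes ranked by size of change with at least 50 counts in 1 library, most have been described. The others among the 15 largest losses include TRIML2, at 38.4 FPKM and 0.89 FPKM, CAVIN3, a protein of caveolae, at 32.2 FPKM and 2.79 FPKM, and TENT5B, at 54.5 FPKM and 6.35 FPKM. LINGO1, a membrane protein of neurons, stood at 29.4 FPKM and 3.67 FPKM. FAM167A was the remaining large gain, at 0.12 FPKM and 25.5 FPKM.

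Among the 5 largest non-coding gains, 3 lie beside the largest coding gains. LINC01124, at 0 and 1275 counts, lies 769 bases from SP5 on the opposite strand, at chr2:170712451-170714567. LNCDAT, at 11 and 2094 counts, overlaps TBXT on the opposite strand. ENSG00000253308, at 0 and 362 counts, lies 1471 bases from EVX1 on the opposite strand. This neighbourhood was looked at after the values were seen. Over all 349 non-coding genes that were higher, the nearest protein-coding gene was itself higher for 18.1%, against 2.48% of the 1935 non-coding genes within the threshold. For the 328 that were lower, the nearest coding gene was lower for 10.4%, against 1.65%. Of the 63 pairs that were both higher 33 do not overlap, and of the 34 that were both lower 13 do not. Whether reads of overlapping genes were assigned by strand is not given in the sources used here, and many of the non-coding calls rest on few counts.

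Levels in the later libraries show how brief the day 1 state was for some genes. They are given side by side, since day 1 is shared by both steps. DKK1 stood at 0.13 FPKM, 220 FPKM and 0.04 FPKM on days 0, 1 and 2. DKK4 stood at 0 FPKM, 241 FPKM and 9.09 FPKM, NODAL at 16.9 FPKM, 122 FPKM and 6.96 FPKM, and SP5 at 0.09 FPKM, 325 FPKM and 47.7 FPKM. FGF8, EVX1, CDX1 and FGF4 also had their highest level of all 15 libraries on day 1. AXIN2 returned to 7.66 FPKM on day 2.

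Other genes stayed or went on. EOMES was at 128 FPKM and TBXT at 95.4 FPKM on day 2, and over the 12 libraries of days 3 to 10 their medians were 0.415 FPKM and 0 FPKM. LEF1 was at 18.6 FPKM on day 2 and between 13.6 FPKM and 61.2 FPKM later, GATA4 between 26.8 FPKM and 139 FPKM, and WLS between 40.5 FPKM and 198 FPKM. MESP1 reached 81.8 FPKM on day 2. POU5F1 was at 241 FPKM on day 2, and NANOG at 3.92 FPKM. SOX2 was at 8.47 FPKM on day 2 and reached 41.6 FPKM in a later library. PODXL, lost on day 1, stood between 18.2 FPKM and 304 FPKM on days 3 to 10.

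**Figure D5:**
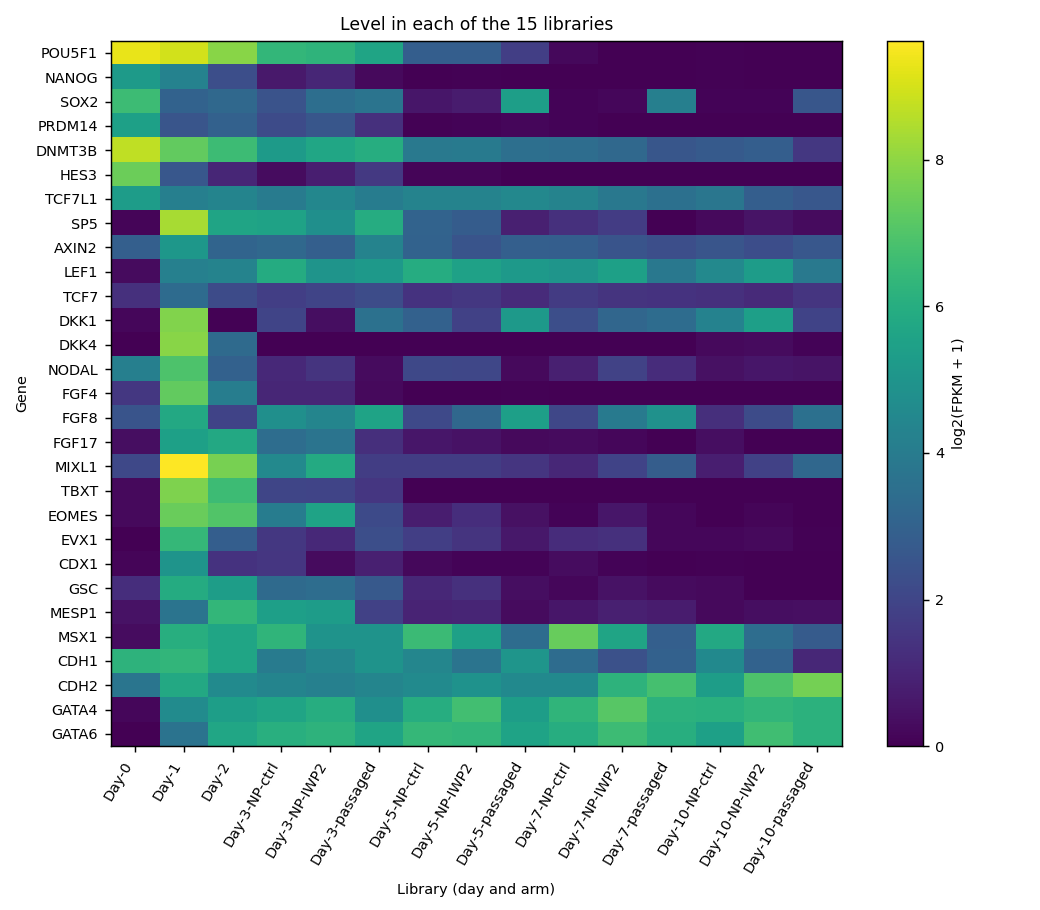
Level of 29 genes (rows) in each of the 15 libraries (columns, in order of day and arm), as log2(FPKM + 1) in colour. MIXL1, SP5, DKK4, TBXT and EVX1 are brightest on day 1, GATA4 and GATA6 appear on day 1 and stay, and POU5F1 fades later than SOX2 and HES3.

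The size of the day 1 step can be set beside other pairs of single libraries. Between day 0 and day 1, 10.1% of the genes compared were called in either direction, 753 of them protein-coding. Between day 1 and day 2, 1484 of 14582 genes were called (10.2%), 816 of them protein-coding. Between NP-ctrl and NP-IWP2 on day 3, which share the same day, 880 of 15434 were called (5.7%), of which 100 were protein-coding. Without replicates, the part of any of these numbers that is spread between cultures was not measured.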

How the data were processed

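Bulk RNA sequencing was deposited for 15 libraries, and day 1 was compared with day 0, with 1 library each. Groups and days were taken from the sample titles. Per the submitters' processing notes, the authors used cutadapt 1.9.1, HISAT2 2.0.1 and HTSeq 0.6.1 on build hg38. The library kit named is one for long reads, whereas these are short-read tools, so the read type is unresolved and values scaled by gene length carry that doubt. Use of read strand is not given in the sources used here. The authors deposited whole-number counts per Ensembl gene, and FPKM values made from them by exonic length and total count. FPKM values recomputed here departed from the deposited ones by no more than 0.005.

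Genes with FPKM of at least 1 in either library were compared on log2(FPKM + 1), with a threshold of 1. Ratios are of counts per total count, with exact (Clopper-Pearson) 95% intervals (scipy 1.17.1), tested on simulated data. Ratios to a library at 0 counts use a floor of 3 counts. No count model was fitted, because each group has 1 library. The 38 gene lists and 33 gene families, like the comparison itself, were chosen with earlier results of these data known. Patterns for the FOX, integrin and cyclin families were corrected afterwards to drop genes of other families. Named genes are list and family members, defining members and those past the threshold first, the 15 protein-coding genes with the largest difference in each direction among those with at least 50 counts in the higher library, and 5 non-coding genes in each direction. Of 60605 identifiers, 60463 matched GENCODE release 44, and 19913 of 20014 missing symbols were filled from a table of identifiers. Promoter windows are from RefSeq. A few list members are not reported or drawn here. Alternatives were another pseudocount, TPM, median-of-ratios and TMM (edgeR 4.0.16) scaling, totals without mitochondrial genes, and other filters and thresholds. Total counts were 16971479 and 18438286, so that 3 counts at an exonic length of 1 kilobase equal 0.177 FPKM and 0.163 FPKM.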

Additional observations from a re-analysis of the deposited data

How the results depend on the processing

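The numbers of genes called depend on the pseudocount, the filter and the threshold. From 692 higher and 738 lower they became 1143 and 1233 with a pseudocount of 0.1, and 2027 and 1991 with TPM, where 1 unit is a lower level. A filter of 5 FPKM gave 301 and 362, protein-coding genes alone gave 343 and 410, and a threshold of 2 gave 147 and 90. With at least 30 counts in either library 437 were higher and 521 lower. Median-of-ratios scaling (682 and 746), TMM scaling (673 and 759) and totals without mitochondrial genes (750 and 764) stayed within 1.5 times. Dropping the filter could change nothing, because a difference of 1 already requires at least 1 FPKM in 1 library. The share of higher among all calls was 48.4%, and 62.0% at the threshold of 2. Of 175 named genes past the threshold all stayed past it in the same direction under median-of-ratios scaling and totals without mitochondrial genes. These 2 settings moved no list median by more than 0.01 and 0.06, so only genes close to the threshold could have been lost. All stayed past it under the other pseudocount as well, but a lower pseudocount can only enlarge a difference. All also did under TPM, which acts much the same way because 1 unit is a lower level. TMM scaling moved 1, EGLN1, from 1.01 to 0.997, and none changed sign. Of 68 lists and families with at least 3 members above the filter, the median changed sign for FOX genes under TMM (0.02 to -0.002) and for fatty acid synthesis genes without mitochondrial totals (-0.002 to 0.004), both near 0. Medians of lists with low members grew in size with a pseudocount of 0.1, for 13 lists by at least the counting error typical of a single member. With TPM this held for 10. Those of streak factors went from 3.22 to 4.60 and 4.18, of WNT feedback targets from 2.05 to 2.56 and 2.43, and of WNT ligands, the largest move, by 2.55 and 1.29. No paired analysis was possible because each day has 1 library and the labels give no replicate numbers. Leaving out a replicate could not be done either. Depth limits genes of few counts, where the interval of a ratio is wide.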

Other observations

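The metallothioneins, small proteins that bind zinc and copper, were looked at after their values were seen. Of 11 protein-coding metallothionein genes listed, 6 were above the filter, and all 6 were lower on day 1, against 3.56% of protein-coding genes. MT1H went from 113 to 10 counts, a 12.3-fold difference, MT1E from 223 to 39 counts, MT1G from 511 to 107 counts and MT2A from 701 to 169 counts. MT1X and MT1F were 2.88-fold and 2.75-fold lower. MT1A, below the filter, had 3 counts and 5 counts. These genes are close paralogs on 1 chromosome arm, and how shared reads were counted is not given in the sources used here. The medium changed on the same day.

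Of 400 ZNF genes above the filter 302 had positive differences and 96 negative ones (7241 of 14131 genes were positive in all), with a median of 0.20 on the log2 scale. Of these 400 genes, all protein-coding, 8 were called higher and 5 lower, against 2.98% and 3.56% of protein-coding genes. Of 18 replication-dependent histone genes above the filter, 17 had negative differences and 3 were called lower.

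MT-ATP8 went from 3842 to 1206 counts, 3.46-fold lower (3.24 to 3.69), whereas MT-ATP6, which overlaps it on the mitochondrial genome, stood at 5277 FPKM and 4836 FPKM. How reads in the overlap were counted is not given in the sources used here.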
